A study of Mus musculus with 24 samples.

Results

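Cauda epididymosomes of mice that received dibutyl phthalate (DBP) were set against those of mice that received di(2-ethylhexyl) phthalate (DEHP) at the same mass dose. The 12 libraries were chosen by their treatment labels alone, 6 with DBP and 6 with DEHP, out of 24 libraries in the series. Both groups were male C57BL/6J mice, 7 to 8 weeks old per the labels, and an implanted osmotic pump delivered the compound over 6 weeks. The dose was 2.5 mg/kg/day, as DBP with no DEHP in DBP mice and as DEHP with no DBP in DEHP mice. The remaining 12 libraries came from mice given the solvent (50% DMSO) or both diesters. All groups carried a pump, and the sources used here do not say whether the phthalates were dissolved in the same solvent. Per the labels each group had 6 mice. Each diester had libraries 1 to 3 on sequencing lane 6 and libraries 4 to 6 on lane 7, which balanced lane against diester.

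DBP and DEHP are diesters of phthalic acid, used as plasticisers. They share the aromatic core and differ in the alcohol part: DBP carries linear butyl chains, and DEHP carries longer, branched 2-ethylhexyl chains. In the body both are split to monoesters, and both are known in rodents for effects on androgen-dependent tissues of the male tract. A DEHP molecule is heavier, so equal mass means fewer molecules of DEHP. Epididymosomes are vesicles released by the epithelium of the epididymis. They meet sperm during maturation and carry small RNAs, among which fragments of tRNAs are abundant, and the cauda is the segment in which sperm are stored.

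The miRNA sequences shown first are those of 4 arms of the let-7 family and of mmu-miR-1961, mmu-miR-761 and mmu-miR-2137. They are mature sequences from RefSeq on GRCm38.p6, written 5′ to 3′, with the seed (bases 2 to 8) in capitals.
mmu-let-7a-5p: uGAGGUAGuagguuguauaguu
mmu-let-7b-5p: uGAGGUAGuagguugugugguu
mmu-let-7c-5p: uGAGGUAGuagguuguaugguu
mmu-let-7f-5p: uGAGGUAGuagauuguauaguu
mmu-miR-1961: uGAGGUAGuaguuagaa
mmu-miR-761: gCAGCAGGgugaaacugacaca
mmu-miR-2137: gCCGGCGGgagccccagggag
The 4 let-7 arms, known to repress genes of growth and pluripotency, share their seed with mmu-miR-1961, and 11 of the 1679 mature mouse miRNAs in the table hold it. The seed of mmu-miR-761 is shared with mmu-miR-214-3p alone in that table, and that of mmu-miR-2137 with no other entry. In the genome mmu-miR-761 lies at chr4:109017669-109017690 on the plus strand. The position of mmu-miR-2137 is chrX:72992113-72992133 on the plus strand, and mmu-miR-1961 at chr5:92788465-92788481 on the minus strand. The deposited miRNA tables list hairpins and mature arms as separate entries. The hairpin of mmu-mir-761 had 50 reads after DBP and 103 after DEHP while the mature entry had 0 reads after either, which allows up to 3 reads. The mature entry of mmu-miR-1961 likewise had 0 reads although its hairpin entry had 459565 reads after DBP and 426622 after DEHP. For mmu-miR-2137 the mature entry had 270350 reads after DBP and 323440 after DEHP, and the hairpin entry 272840 after DBP and 326979 after DEHP. The sources used here do not say whether a read on the arm was also counted on the hairpin, so arms and hairpins of the same miRNA are not independent measurements. Among the tested hairpins with matched arms, 27 had arm reads equal to 50% or more of the hairpin's reads and 20 had 0 arm reads.

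The libraries held 8314985 to 15183796 reads over the 7 RNA classes. The DBP and DEHP libraries were as alike across diesters as within them. Over log2 CPM (counts per 1000000 reads, scaled to TMM-adjusted library totals) of 9000 features, the median Pearson correlation across features was 0.950 between pairs of DBP libraries, 0.947 between pairs of DEHP libraries and 0.950 between a DBP and a DEHP library. Libraries 5 and 6 of both diesters stood apart from the rest: libraries 1 to 4 correlated with libraries 5 and 6 at a median of 0.928 within a diester and 0.925 across diesters, against 0.955 and 0.960 for pairs on the same side of that split. On the first principal component, which held 39.2% of the variance, libraries 5 and 6 scored 44.06 and 41.89 after DBP and 38.45 and 44.13 after DEHP. All others scored from -38.26 to -0.94, and neither of the first 2 components separated the diesters. The split falls inside lane 7 and is balanced over diesters. With a term for it, or without these 4 libraries, edgeR made 0 calls at an adjusted p under 0.05, as it did with all 12 libraries.

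**Figure D1:**
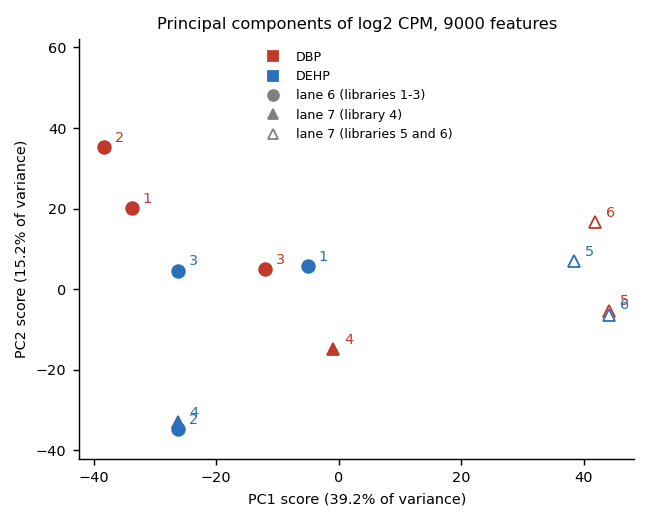
Principal components 1 (39.2% of variance) and 2 (15.2%) of log2 CPM over 9000 features, 1 point per library, numbered as labelled. Libraries 5 and 6 of both diesters lie on the right at scores from 38.45 to 44.13, and red DBP and blue DEHP points are mixed on both axes.

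The make-up of the cargo by RNA class was compared first. Reads on piRNA references made up 47.4% ± 3.45 after DBP and 45.7% ± 2.75 after DEHP (SD, n = 6 each), a difference of 1.66 percentage points with a 95% interval of -1.68 to 5.13. Reads on tRNA references made up 34.8% ± 5.55 after DBP and 36.2% ± 3.83 after DEHP, a difference of -1.33 points (-6.16 to 3.51). The DBP libraries ran from 26.4% to 42.7% tRNA and the DEHP libraries from 30.4% to 40.6%, so that the DEHP range lay inside the DBP range. Entries of the miRNA class took 5.35% ± 1.01 after DBP and 5.46% ± 0.303 after DEHP, with a difference of -0.11 points (-0.885 to 0.671). The rRNA class took 4.24% ± 0.943 after DBP and 4.15% ± 0.340 after DEHP, and circRNA 4.07% ± 0.971 after DBP and 4.14% ± 0.629 after DEHP. The class named otherRNA took 3.40% ± 0.826 after DBP and 3.61% ± 0.548 after DEHP, and lncRNA 0.743% ± 0.0657 after DBP and 0.793% ± 0.120 after DEHP. By an exact two-sided permutation test within lane (400 arrangements, smallest possible p 0.005), p was 0.285 for piRNA, 0.535 for tRNA, 0.760 for miRNA, 0.815 for rRNA, 0.840 for circRNA, 0.390 for lncRNA and 0.475 for otherRNA, and 0.840 for all 7 after Benjamini-Hochberg adjustment. The interval for tRNA is wide enough to hold a difference of several percentage points either way. In the controls of the series, which entered no test, piRNA took 48.1% ± 4.54, tRNA 32.4% ± 5.55 and miRNA 5.62% ± 0.671.

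Within lanes, several of these differences changed sign. The miRNA share differed by -0.79 points on lane 6 and 0.575 on lane 7. For rRNA the differences were 0.97 and -0.78 points, for circRNA -0.42 and 0.29, and for otherRNA -0.44 and 0.025. The signs were the same on both lanes for tRNA (-0.068 and -2.58), piRNA (0.768 and 2.55) and lncRNA (-0.019 and -0.082).

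**Figure D2:**
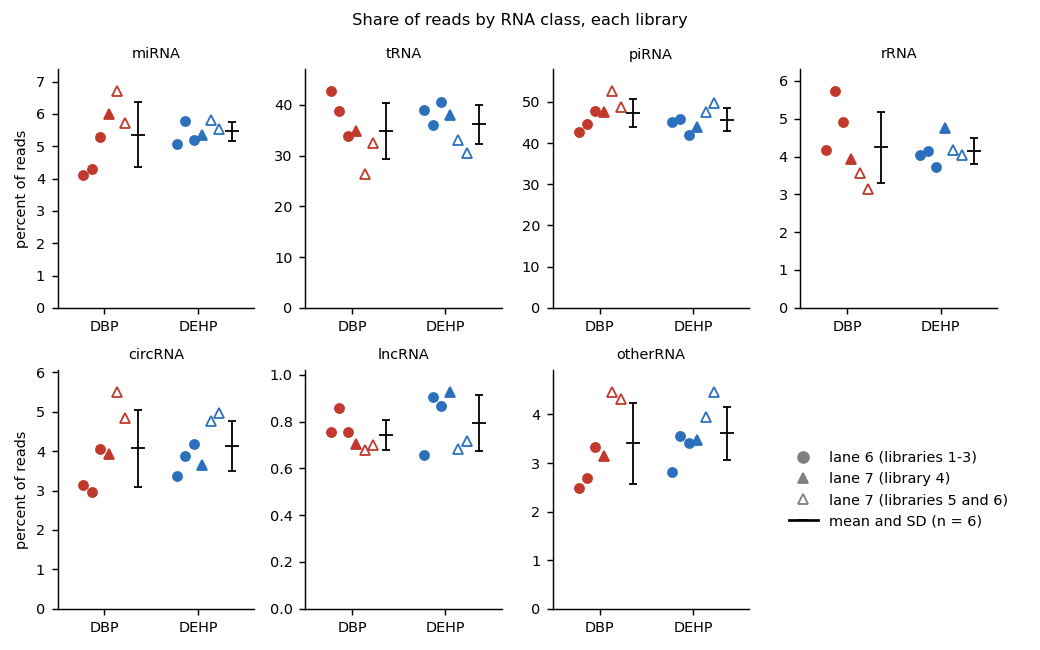
Percent of a library's reads in each of 7 RNA classes, 1 point per library, with mean and SD (n = 6) beside each group; circles are lane 6, triangles lane 7, and open symbols libraries 5 and 6. DBP and DEHP points overlap in every panel, with tRNA means of 34.8% after DBP and 36.2% after DEHP.

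Feature by feature, no RNA separated the diesters after correction. A feature is a reference entry of any class, and 9000 with enough reads were tested together: 3147 otherRNA, 2759 circRNA, 1745 piRNA, 786 lncRNA, 335 tRNA, 205 miRNA and 23 rRNA entries. The filter on low counts took diester as its group, so a thinly read entry could pass on the libraries of a single diester. With edgeR's quasi-likelihood test and a term for lane, 0 features (0%) had a Benjamini-Hochberg adjusted p under 0.05, and the smallest adjusted p was 0.999. At an unadjusted p under 0.05 there were 338 features, 3.76% of those tested, of which 120 (1.33%) were higher after DBP and 218 (2.42%) lower. DESeq2 and limma voom also made 0 adjusted calls, with 390 and 454 features at an unadjusted p under 0.05. The split into higher and lower depends on the scaling. Of the features at that p, 35.5% were higher after DBP with TMM, 45.8% with DESeq2 size factors, 8.17% with plain library totals and 47% with each class scaled on its own. The median log2 fold change of all features was -0.0063 with TMM and -0.10 with plain totals.

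The absence of calls is not a finding that the diesters act alike, and the intervals show how large a difference the libraries can still hold. The median SE of a log2 fold change was 0.255. For 7054 features (78.4%) the whole 95% interval lay within a 2-fold difference in either direction, and for 2465 (27.4%) within 1.5-fold. By class, intervals within 2-fold were found for 85.9% of circRNA, 82.9% of otherRNA, 74.9% of tRNA, 73.7% of lncRNA, 67.8% of miRNA, 62.8% of piRNA and 47.8% of rRNA entries. The effect of the diester was also compared between lanes. Its interaction with lane had 0 adjusted calls with edgeR (0%, smallest adjusted p 0.907, with 483 features or 5.37% at an unadjusted p under 0.05) and 0 with limma voom.

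The series' own criterion, stated in the labels for contrasts with control, is a fold change of at least 1.5 with p under 0.01. Applied to DBP over DEHP with unadjusted p, it was met by 24 features (0.267%), 7 higher after DBP (0.0778%) and 17 lower (0.189%). They comprised 8 otherRNA, 7 circRNA, 4 lncRNA, 4 piRNA and 1 miRNA entries, and 0 tRNA and 0 rRNA entries. With plain library totals the split was 1 higher and 27 lower, and with each class scaled on its own 13 and 16. The features were thinly read: 21 of the 24 had a mean below 3 CPM, and their median was 1.58 CPM against 2.37 CPM over all features tested. For 23 of the 24 all 6 DBP libraries lay on 1 side of the DEHP mean, which their choice by p over these libraries favours. Complete separation of the 6 DBP from the 6 DEHP libraries was found for 14 features of the 9000 (0.156%), 3 higher after DBP (0.0333%) and 11 lower (0.122%). With plain library totals it was found for 0 higher and 9 lower. These counts were not tested against the number that the order of labels alone would give. The criterion and the separation were met together by 4.

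**Figure D3:**
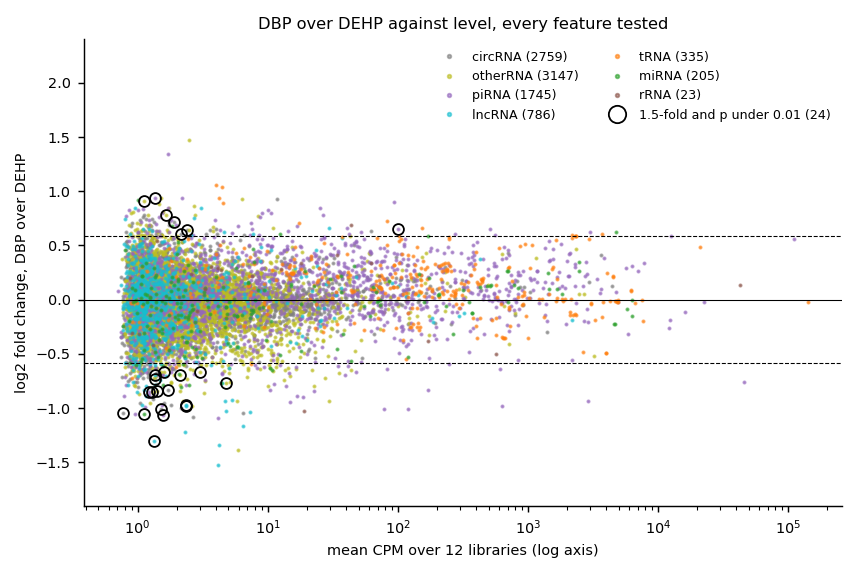
Log2 fold change of DBP over DEHP against mean CPM (log axis) for the 9000 features tested, coloured by class. Dashed lines mark 1.5-fold, and the 24 ringed features met 1.5-fold with unadjusted p under 0.01; 21 of them lie below 3 CPM and 1, piR-mmu-2979929, at 99.7 CPM.

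Among those 4, the best-read was piR-mmu-2979929, a 25-base piRNA reference. Its level ran from 96.99 through a median of 117.2 to 174.6 CPM in the DBP libraries, against 53.67, 81.84 and 91.08 CPM in the DEHP libraries, so that on the TMM scale the lowest DBP library lay above the highest DEHP library. The log2 fold change was 0.65 ± 0.20 (SE; 95% interval 0.23 to 1.08; edgeR unadjusted p = 0.00545, adjusted p = 0.999), with 0.52 on lane 6 and 0.81 on lane 7. It rested on 8589 reads after DBP and 5240 after DEHP. In RPM, which scales reads to the plain library total in place of the TMM-adjusted one, it averaged 122.6 ± 50.3 after DBP, 80.4 ± 20.03 after DEHP and 95.3 ± 29.9 in controls. On that scale the groups overlapped, at 64.0 to 206.6 RPM after DBP and 51.8 to 106.9 RPM after DEHP. Its log2 fold change was 0.55 with plain totals and 0.58 with each class scaled on its own, and it missed the criterion under both and without the filter on low counts.

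A circRNA assigned to Dnmt3b, which encodes a de novo DNA methyltransferase, was the circRNA that met both. The entry mmu_circ_0001094 had 2.12, 2.71 and 2.97 CPM (lowest, median, highest) in DBP libraries, against 1.23, 1.77 and 1.96 CPM in DEHP libraries, from 20 to 38 reads a library after DBP and 12 to 22 after DEHP. Its log2 fold change was 0.61 ± 0.17 (unadjusted p = 0.00297), with 0.67 on lane 6 and 0.58 on lane 7, and 0.51 with plain library totals, where it missed the criterion. In RPM the groups overlapped, at 1.9 to 3.309 RPM after DBP and 1.109 to 2.405 RPM after DEHP. The reference of this entry is 32024 bases long, and where on it the reads lay was not examined. Linear RNA of a host gene can give the same reads as a circle unless the junction is read, and the sources used here do not say how they were told apart.

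The other 2 were otherRNA entries with lower levels after DBP. A430093F15Rik (chr19:10748037-10756771, plus strand, GRCm38), a retained-intron transcript, had 1.28, 1.66 and 1.89 CPM in DBP libraries, against 2.10, 2.55 and 3.39 CPM in DEHP libraries, with no overlap. It did not overlap in RPM either, at 1.045 to 2.126 RPM after DBP and 2.282 to 3.271 RPM after DEHP. Its log2 fold change was -0.69 ± 0.17 (unadjusted p = 0.00137), with -0.69 on lane 6 and -0.66 on lane 7. ENSMUST00000238602.1, which the annotation used here does not name, had 0.663, 1.05 and 1.20 CPM after DBP, against 1.33, 1.77 and 2.51 CPM after DEHP. This corresponded to a log2 fold change of -0.84 ± 0.22 (unadjusted p = 0.00181), with -0.65 on lane 6 and -0.97 on lane 7. In RPM its groups overlapped, at 0.5699 to 1.329 RPM after DBP and 1.201 to 2.354 RPM after DEHP. Both differences had the same sign on both lanes and rest on 6 to 38 reads a library.

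Other circRNAs met the criterion with overlapping groups. The entry mmu_circ_0003443 of Zfp207, whose protein binds spindle microtubules and kinetochores, had 1.69, 2.53 and 2.89 CPM after DBP, against 1.23, 1.39 and 1.77 CPM after DEHP. Only the highest DEHP library reached into the DBP range. The log2 fold change was 0.72 ± 0.18 (unadjusted p = 0.00139). Lower after DBP were mmu_circ_0014167 of C80913 (-1.01 ± 0.28), mmu_circ_0015637 (-1.05 ± 0.34) and mmu_circ_0006258 of Stxbp5l, which encodes a syntaxin-binding protein (-0.73 ± 0.25). For mmu_circ_0014167 the difference was -1.68 on lane 6 and -0.55 on lane 7. The entry mmu_circ_0015637 rested on 1 to 13 reads a library after DBP and 6 to 15 after DEHP.

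The snoRNA entry Gm26132 was the snoRNA that met the criterion, and its sequence is given because its box can be read from it. It lies at chr8:110923116-110923263 on the plus strand of GRCm38, and the 148-base GENCODE sequence is written 5′ to 3′ with an ACA triplet 3 bases before the end in capitals.
Gm26132: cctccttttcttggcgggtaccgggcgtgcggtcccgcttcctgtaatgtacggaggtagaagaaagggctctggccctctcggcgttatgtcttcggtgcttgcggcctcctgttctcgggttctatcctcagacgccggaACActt
An ACA triplet at that distance from the 3′ end is the mark of the H/ACA class, which guides pseudouridylation. Read on the transcript strand, 276 of 1507 snoRNA entries (18.3%) held ACA at exactly that place. Gm26132 had 0.798, 1.62 and 1.84 CPM after DBP, against 0.268, 0.849 and 1.18 CPM after DEHP, from 107 reads after DBP and 54 after DEHP. The groups overlapped, and the log2 fold change was 0.91 ± 0.30 (unadjusted p = 0.00805), with 1.00 on lane 6 and 0.88 on lane 7. Of the other snoRNAs, 46 C/D box entries had a median log2 fold change of 0.0015 with 23 above 0, and 28 H/ACA entries with a Snora name 0.11 with 18 above 0, against -0.0063 over all features. The 85 tested snoRNA entries without a Snora or Snord name, Gm26132 among them, had a median of 0.039, with 47 above 0 and 38 below.

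Among long RNAs, 0610009E02Rik (chr2:26445696-26459379, plus strand), a processed transcript, had 1.19, 2.16 and 2.64 CPM after DBP and 0.802, 1.20 and 1.67 CPM after DEHP. Its log2 fold change was 0.78 ± 0.22 (unadjusted p = 0.0028), and 5 of 6 DBP libraries lay above the DEHP mean. Gm16726 (chr19:46264539-46267669, minus strand), an antisense transcript, had 0.557, 0.770 and 1.61 CPM after DBP and 1.21, 1.64 and 2.14 CPM after DEHP, a log2 fold change of -0.85 ± 0.22. Counting strand was not stated, so reads on Gm16726 and 0610009E02Rik cannot be told from reads of any gene they overlap. All 4 lncRNA entries that met the criterion were lower after DBP. They included Gm6416 (chr13:117130027-117135884, plus strand; -1.31 ± 0.41), ENSMUST00000239182.1 (-0.97 ± 0.29) and Gm13346 (chr2:19676711-19686157, minus strand; -0.69 ± 0.21). Gm6416 had 0.223, 0.681 and 1.47 CPM after DBP, against 0.968, 1.50 and 3.66 CPM after DEHP, and its difference was -2.13 on lane 6 and -0.73 on lane 7. It rested on 2 to 20 reads a library after DBP and 12 to 41 after DEHP.

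The miRNA entry that met the criterion was the hairpin mmu-mir-761, whose mature sequence stands above. It had 0.499, 0.665 and 0.963 CPM after DBP, against 0.820, 1.56 and 2.32 CPM after DEHP, from 5 to 15 reads a library after DBP and 8 to 25 after DEHP. DEHP libraries 1 and 5 lay inside the DBP range and the other 4 above it. The log2 fold change was -1.06 ± 0.31 (unadjusted p = 0.00383), with -1.21 on lane 6 and -0.89 on lane 7. A further 3 piRNA references met it at under 2 CPM: piR-mmu-7402497 (0.94 ± 0.26), piR-mmu-6254633 (-1.06 ± 0.32) and piR-mmu-1986701 (-0.85 ± 0.26).

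Of the 24 features, the 18 named by rule (up to 3 per class and direction by smallest p, and those without overlap) had the same sign on both lanes, which their choice by p over these libraries favours. Only 6 of the 18 met the criterion in each of the 12 fits that left out 1 library: mmu_circ_0003443, A430093F15Rik, Gm16726, ENSMUST00000238602.1, 0610009E02Rik and piR-mmu-7402497. The entry mmu_circ_0001094 lost it without DBP 1, DBP 2 or DEHP 1, and piR-mmu-2979929 without DBP 1, DBP 6, DEHP 2, DEHP 4 or DEHP 6. The hairpin mmu-mir-761 lost it without DBP 3, DBP 5, DBP 6, DEHP 3 or DEHP 4. The count of features that met the criterion was 24 with all libraries, 15 without DEHP 2 and 51 without DBP 4. It was also beyond 1.5 times the full count without DBP 3 (38), DBP 5 (40), DEHP 3 (40) and DEHP 5 (47).

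**Figure D4:**
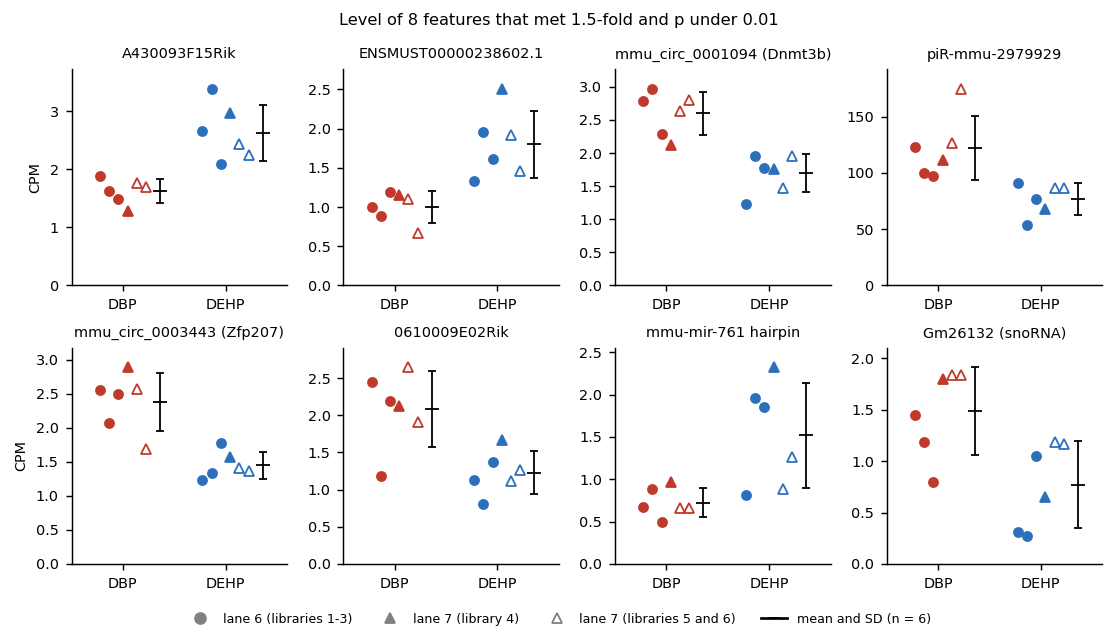
CPM of 8 features that met 1.5-fold with unadjusted p under 0.01, 1 point per library, with mean and SD (n = 6) beside each group; circles are lane 6, triangles lane 7, open symbols libraries 5 and 6. On this TMM scale DBP and DEHP libraries do not overlap for A430093F15Rik, ENSMUST00000238602.1, mmu_circ_0001094 and piR-mmu-2979929, and overlap for the other 4. Scaled to plain library totals, only A430093F15Rik among the first 4 stays without overlap.

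In the tRNA class 3 of 335 entries (0.896%) had an unadjusted p under 0.05, against 3.76% of all features. By amino acid, several families lay to one side of 0. Every one of the 10 tested tRNA-His entries (median log2 fold change 0.58) and of the 15 tRNA-Gln entries (median 0.50) was higher after DBP. Of 17 tRNA-Cys entries 16 were lower (median -0.35), and of 19 tRNA-Val entries 18 (median -0.16). Over all features the median was -0.0063. The tRNA class itself lay above that with TMM, with 237 of 335 entries higher after DBP and a median of 0.115, against -0.0013 with plain totals and -0.00057 with each class scaled on its own. Under those 2 scalings the median was 0.44 and 0.43 for tRNA-His and 0.38 and 0.42 for tRNA-Gln. Copies of 1 tRNA share almost their whole sequence, so that the entries of a family are not separate measurements, and the sources used here do not say how reads on several copies were assigned. The best-read tRNA-His entry, tRNA-His-GTG-2-8, had 2116, 3697 and 7838 CPM after DBP, against 1935, 2921 and 3548 CPM after DEHP. Its log2 fold change was 0.60 with a 95% interval of -0.16 to 1.36, and 3 of 6 DBP libraries lay above the DEHP mean. The best-read tRNA-Gln entry, tRNA-Gln-CTG-2-1, had 570.5, 1222 and 2685 CPM after DBP and 479.4, 756.9 and 1304 CPM after DEHP, with 0.50 (-0.19 to 1.20).

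The tRNA-His and tRNA-Gln medians were higher on lane 6 than on lane 7. On lane 6 the median log2 fold change was 1.11 for tRNA-His and 0.96 for tRNA-Gln, while on lane 7 it was 0.069 and 0.025. Of 23 tRNA families with a tested entry, 19 had a median above 0 on lane 6 and 7 on lane 7. With both lanes 15 had one above 0 with TMM, 17 with DESeq2 size factors, and 11 with plain library totals or with each class scaled on its own. DBP 2 on lane 6 had the lowest TMM factor of the 12 libraries (0.643) and DEHP 6 the highest (1.246). Entries of tRNA-Val had medians of 0.16 on lane 6 and -0.46 on lane 7, whereas tRNA-Cys had -0.48 and -0.19. By summed reads, tRNA-His came to 12100 to 32500 RPM after DBP and 10110 to 22770 RPM after DEHP, and tRNA-Cys to 2801 to 6608 RPM after DBP and 3168 to 6890 RPM after DEHP. The 2 ranges overlapped for both families.

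Within tRNA-Gly all 27 entries were above 0, with a median of 0.17 on the TMM scale and 0.037 with plain totals. The 6 tRNA-Gly-CCC entries split by how well they were read. The entries tRNA-Gly-CCC-1-1 and tRNA-Gly-CCC-1-2, at 6209 and 6216 CPM on average, had log2 fold changes of 0.088 (-0.51 to 0.68) and 0.076 (-0.52 to 0.67). The entries tRNA-Gly-CCC-2-1, tRNA-Gly-CCC-2-2, tRNA-Gly-CCC-3-1 and tRNA-Gly-CCC-4-1, at 3.99 to 4.50 CPM, had 0.89, 1.06, 1.04 and 0.94, with SEs of 0.46 to 0.53. The tRNAs whose 5′ fragments are well known in mouse sperm (Gly-GCC, Gly-CCC, Glu-CTC, Lys-CTT, Val-CAC and His-GTG; 59 entries) summed to 76070 to 114900 RPM after DBP and 86400 to 107100 RPM after DEHP. Their mean sum was 93190 RPM after DBP and 94130 RPM after DEHP. The median log2 fold change of the entries was 0.18 with TMM, 0.040 with plain totals and 0.044 with each class scaled on its own. With TMM 41 entries were above 0, 18 below and 0 at an unadjusted p under 0.05.

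**Figure D5:**
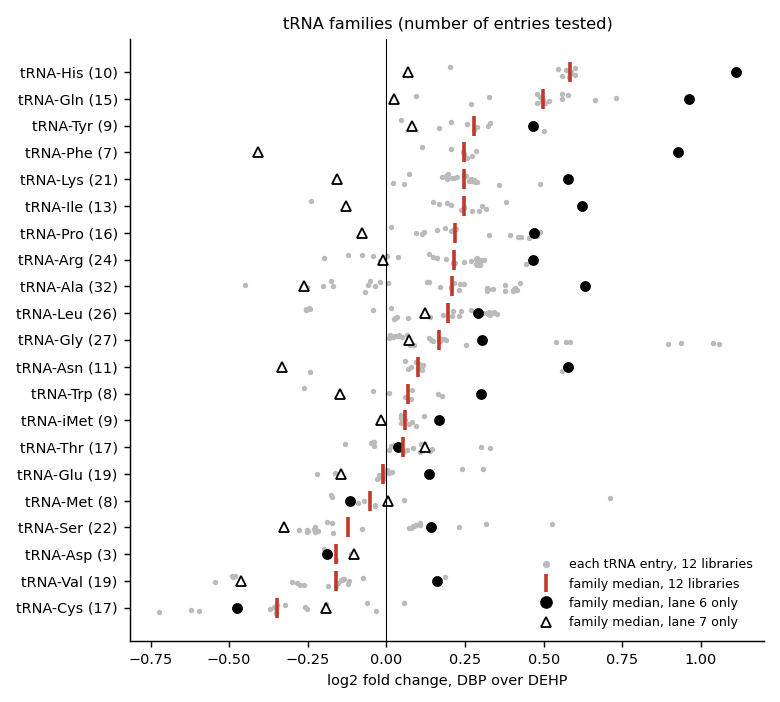
Log2 fold change of DBP over DEHP for tRNA families with at least 3 tested entries: grey points are entries over 12 libraries, red bars their median, black circles the median on lane 6 and open triangles on lane 7. The families tRNA-His and tRNA-Gln stand at 1.11 and 0.96 on lane 6 but at 0.069 and 0.025 on lane 7.

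The most-read entries carried wide intervals. The piRNA reference piR-mmu-30344366 held 64360, 113600 and 262000 CPM (lowest, median, highest) in DBP libraries, against 67820, 83250 and 128000 CPM in DEHP libraries. Its log2 fold change was 0.56 (95% interval -0.17 to 1.29), with 5 of 6 DBP libraries above the DEHP mean. The next, piR-mmu-5890133, held 13450, 37410 and 49000 CPM after DBP, against 23200, 35400 and 118900 CPM after DEHP. None of the DBP libraries lay above the DEHP mean of that entry, but the interval of its log2 fold change of -0.76 ran from -1.80 to 0.28. DEHP 2 and DEHP 4 stood at 118900 and 97640 CPM, and the other DEHP libraries at 23200 to 35800 CPM. The DBP median of that entry lay above its DEHP median. For tRNA-Arg-CCG-3-1 the values were 62570, 131500 and 238900 CPM after DBP and 69820, 153200 and 183900 CPM after DEHP, with -0.020 (-0.80 to 0.76). The entry tRNA-Pro-TGG-1-1 had 0.49 (-0.26 to 1.23). The most-read rRNA transcript, ENSMUST00000198477.2, had 25540, 43170 and 88930 CPM after DBP and 31030, 39250 and 49830 CPM after DEHP. Among miRNA entries, the 3 most-read were hairpins: mmu-mir-1961 had -0.0077 (-0.71 to 0.69), mmu-mir-3535 had -0.087 (-0.69 to 0.51) and mmu-mir-1928 had -0.15 (-0.81 to 0.51).

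In the let-7 family 11 of 12 tested entries were lower after DBP, with a median log2 fold change of -0.38, against -0.031 over the 205 miRNA entries. That median was -0.53 on lane 6 and -0.23 on lane 7, and lay between -0.466 and -0.345 under the 3 other scalings. Summed over all 34 let-7 references, reads came to 18.9, 23.1 and 32.4 RPM (lowest, median, highest) after DBP, against 21.7, 30.0 and 37.6 RPM after DEHP. The ranges overlapped over most of their length, and controls averaged 24.8 RPM. The best-read entries, the hairpins mmu-let-7c-1 and mmu-let-7c-2, had log2 fold changes of -0.29 (-1.10 to 0.52) and -0.45 (-1.12 to 0.21). Of the arms printed above, mmu-let-7a-5p had -0.31 ± 0.28, mmu-let-7b-5p -0.21 ± 0.32, mmu-let-7c-5p -0.43 ± 0.31 and mmu-let-7f-5p -0.48 ± 0.29. The hairpin mmu-let-7a-1, named after its values were seen, was the let-7 entry at an unadjusted p under 0.05 (-0.61 ± 0.27, edgeR unadjusted p = 0.0389, adjusted p = 0.999). Each entry rested on few reads, at most 3.02 CPM on average, and hairpins and arms are not independent.

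The other miRNA lists held few tested entries. All 4 entries of the smooth-muscle miRNAs miR-143 and miR-145 were lower after DBP (median -0.48), none at an unadjusted p under 0.05. The arm mmu-miR-145a-5p had 3.90, 5.46 and 22.2 CPM after DBP, against 3.39, 10.8 and 25.6 CPM after DEHP, so that the spread inside each group was wider than the difference between them. The whole muscle list (21 references, miR-1a, miR-133 and miR-206 included) summed to 32.6 ± 24.2 RPM after DBP and 45.7 ± 21.1 RPM after DEHP, and its part in the other differences was not tested. The 2 tested entries of the miR-17 and miR-92 group had a median of -0.70. Markers of several other cell types were at low levels in both groups. Erythrocyte miRNAs (miR-451a, miR-144, miR-486) summed to 0.461 RPM after DBP and 0.610 RPM after DEHP on average, and the liver miRNA miR-122 to 0.174 RPM after DBP and 0.315 RPM after DEHP. Leukocyte miRNAs summed to 2.16 RPM after DBP and 2.25 RPM after DEHP, and male germ line miRNAs to 1.64 RPM after DBP and 1.93 RPM after DEHP, and each of these 4 lists had 0 tested entries. The miR-200 group, a marker of epithelia, also had 0 tested entries and summed to 2.04 RPM after DBP and 3.01 RPM after DEHP.

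Among other RNA groups, the rRNA lists had medians away from 0 that changed sign between lanes. The rest of those given here had medians closer to 0 over both lanes, and several of these also changed sign between lanes. Malat1 and Neat1, nuclear RNAs of speckles and paraspeckles, had log2 fold changes of 0.040 (-0.35 to 0.43) and 0.033 (-0.52 to 0.59) for their best-read transcripts. The imprinted lncRNA Meg3 had 0.042 and -0.015 for 2 transcripts. Rn7s1 and Rn7s2, copies of the 7SL RNA of the signal recognition particle, had 0.051 (-0.48 to 0.59) and 0.055 (-0.47 to 0.58). Snord118 and Snord15b, C/D box snoRNAs that act on rRNA, had 0.10 and 0.030. Spliceosomal snRNAs (57 entries) had a median of 0.051, with -0.358 on lane 6 and 0.222 on lane 7. The mitochondrial rRNAs mt-Rnr1 and mt-Rnr2 had -0.38 (-1.40 to 0.64) and -0.50 (-1.65 to 0.65), with list medians of -1.19 on lane 6 and 0.353 on lane 7. Minor nuclear rRNA entries (19 tested) had a median of 0.22, with 0.827 on lane 6 and -0.358 on lane 7, and -0.10 with each class scaled on its own. CircRNAs of DNA methylation and chromatin genes (73 entries, the Dnmt3b entry among them) had a median of -0.012, with 33 above 0 and 40 below. Those of Zfp genes (60 entries) had 0.012, of cytoskeleton and motor genes (62) -0.0050, of vesicle trafficking genes (61) -0.061, and of steroid and androgen response genes (7) 0.0083. On lanes 6 and 7 the medians were -0.129 and 0.0869 for chromatin genes, and -0.0446 and 0.0871 for Zfp genes. They were -0.0223 and 0.0343 for cytoskeleton genes, -0.108 and -0.00405 for vesicle trafficking genes, and -0.0218 and 0.144 for steroid response genes. Scarb1, the receptor for high-density lipoprotein, gave the best-read circRNA entry of the last list, a reference of 36671 bases, with 0.093 (-0.23 to 0.42).

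Controls of the series entered no test here, and their levels are given in RPM as background. Of the 18 named features that met the criterion, 16 had a control mean between the means of the diesters, 1 below both and 1 above both. Because the features were chosen for the difference between the diesters, that count is a description. The retained intron A430093F15Rik averaged 1.59 ± 0.411 RPM after DBP, 2.69 ± 0.348 RPM after DEHP and 2.06 ± 0.751 RPM in controls (SD, n = 6 each). For the Zfp207 entry mmu_circ_0003443 the means were 2.33 ± 0.658 RPM after DBP, 1.50 ± 0.289 RPM after DEHP and 2.29 ± 0.523 RPM in controls. The mmu-mir-761 hairpin averaged 0.697 ± 0.190 RPM after DBP, 1.56 ± 0.590 RPM after DEHP and 1.29 ± 0.486 RPM in controls. The best-read piRNA reference, piR-mmu-30344366, averaged 121800 ± 30930 RPM after DBP, 88920 ± 15120 RPM after DEHP and 81760 ± 31670 RPM in controls.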

How the data were processed

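Small RNA libraries were made with a Clontech SMARTer kit from vesicle RNA. Per the submitters' processing notes, reads were handled with cutadapt, STAR 2.7.6a and edgeR, and per the labels classes were mapped in a fixed order that does not name otherRNA. The deposited values are counts of reads per reference, and all 7 class tables were joined. The sources used here do not give genome build, strand or treatment of multiply matching reads. Lane was read from the names of the sequencing runs. Features passing filterByExpr (9000) were fitted with edgeR 4.0.16 (R 4.3.3) as lane plus diester, with TMM scaling and two-sided quasi-likelihood tests, tested on simulated data. Limma 3.58.1, DESeq2 1.42.0 and other scalings, filters, terms and samples were alternatives. Class shares used exact permutation within lane (numpy 2.4.6), with intervals by inversion. Transcripts were named from GENCODE M21 (GRCm38). Named were, per class and direction, up to 3 features meeting the criterion, by smallest p, up to 10 that also did not overlap, the 3 most-read of each class and the 2 most-read of a list. Of those meeting the criterion 1 is not reported here, and of the others only some are described. Members and lists were chosen with earlier results of these data known. Intervals for reads cover counting of reads without molecular identifiers. Only the single pair of compounds was compared.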

Additional observations from a re-analysis of the deposited data

Results flagged for a closer look

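There were 158 groups of 6 libraries: the CPM of each named feature and the share of each class, per diester. In 11 of them (6.96%) the highest or lowest library lay farther from the others than Dixon's 95% limit allows. For independent groups of normally distributed values the limit flags about 5.00%. These groups hold untransformed values and include near-copies, so that rate is not a reference for them. Of the 11 flagged libraries, 4 were DBP 2, 3 were DEHP 1, and DBP 4 and DBP 5 had 2 each. In DBP 2, piR-mmu-398716 stood at 52460 CPM (other DBP libraries 11480 to 22250), tRNA-Val-TAC-1-1 at 6983 and tRNA-Val-TAC-1-3 at 6996 CPM (2000 to 3182), and mmu_circ_0002069 of Smarcc2 at 25.98 CPM (10.16 to 15.67). In DEHP 1, piR-mmu-30344366 stood at 128000 CPM (other DEHP libraries 67820 to 89360), and tRNA-Gly-CCC-1-1 at 9478 and tRNA-Gly-CCC-1-2 at 9554 CPM (4471 to 5997). In DBP 4, mmu-miR-145a-5p stood at 22.21 CPM (3.898 to 8.182) and mmu-mir-145a at 24.58 CPM (3.898 to 11.18). In DBP 5, mt-Rnr1 stood at 541.2 CPM (32.66 to 165.5) and Snora73b at 91.34 CPM (8.461 to 37.77). The tRNA-Val pair, the tRNA-Gly-CCC pair and the miR-145a pair are near-copies or a hairpin with its arm, and each pair is close to a single measurement. DBP 2 also had the lowest TMM factor, 0.643, which raises its CPM values, and its part in these values was not tested. Scaled to plain totals, the DBP libraries ran from 12.02 to 16.62 RPM for mmu_circ_0002069 and from 13580 to 33560 RPM for piR-mmu-398716. They ran from 2302 to 4468 RPM for tRNA-Val-TAC-1-1 and from 2261 to 4476 RPM for tRNA-Val-TAC-1-3. Dixon's limit was not applied on that scale.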

How the results depend on the processing

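No alternative that kept the filter on low counts gave a call at an adjusted p under 0.05. Without the filter 8 of 60804 features were called (1 higher after DBP, 7 lower); 6 of the 8 passed the filter, where their unadjusted p was 0.0131 to 0.0689, and the cause was not tested. The 24 features that met the criterion became 412 without the filter, 39 with DESeq2, 47 with limma voom, 39 with a term for libraries 5 and 6, 91 on lane 6 alone and, in a fit added after seeing the data, 42 without libraries 5 and 6 of both diesters (10 shared with the 24). Of the 24, 18 were also met without the filter, 21 with DESeq2, 16 with limma voom, 23 with the term, 4 on lane 6 alone and 1 among the 27 on lane 7 alone. Leaving out 1 library gave 15 to 51. The 338 features at an unadjusted p under 0.05 became 2025 without the filter, 191 without the otherRNA class, where fewer features were tested, 557 on lane 6 alone and 217 to 487 with 1 library left out. The 14 features without overlap became 9 with plain library totals (0 higher, 9 lower) and 18 to 41 with 1 library left out, where fewer libraries have to separate. Class shares that changed sign on lane 7 alone were miRNA (0.575 points), rRNA (-0.7793), circRNA (0.2916) and otherRNA (0.0247). With 1 library left out the difference ran from -0.3795 to 0.1427 for miRNA, -2.902 to 0.3556 for tRNA, -0.2028 to 0.3158 for rRNA and -0.3513 to 0.1556 for circRNA. It kept its sign for piRNA (0.6014 without DBP 5 to 2.606 without DBP 1), otherRNA (-0.4191 without DBP 5 to -0.02256 without DBP 1) and lncRNA (-0.07782 without DEHP 1 to -0.02369 without DEHP 4). Of 18 named features that met the criterion, 0 changed sign under any alternative. Of 54 others, whose intervals held 0, 33 changed sign under at least 1. The 18 were chosen by p in these libraries and the 54 were not, so these counts are no sign of stability. Same-numbered DBP and DEHP libraries showed no clear pairing: their deviations correlated at 0.0329 to 0.609 and no library correlated best with its own number. With lane removed, these correlations ran from -0.278 to 0.401. With the replicate number as a block edgeR made 0 adjusted calls, 29 features met the criterion and 327 had an unadjusted p under 0.05. The median SE of a log2 fold change was 0.304 for features at 0.708 to 1.34 CPM, 0.249 at 1.34 to 2.37, 0.196 at 2.37 to 6.90 and 0.252 above that.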
